A study of Homo sapiens with 6 samples.

Results

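The respiratory chain subunits were examined in Huh7 cells, a line derived from a human hepatocellular carcinoma, after knockout of UBE2S, an E2 enzyme that extends ubiquitin chains for the anaphase-promoting complex. Members were taken by gene symbol: the numbered NDUFA, NDUFB, NDUFC, NDUFS and NDUFV genes, SDHA to SDHD, the UQCR genes, CYC1, the COX4 to COX8 genes, the ATP5 genes, and the mitochondrially encoded ND, CO, CYB and ATP genes. This gave 103 of the 20289 genes in the table, 90 of them nuclear and 13 mitochondrially encoded. Of these, 95 had enough counts to be tested, namely 82 nuclear genes and all 13 mitochondrially encoded genes. The groups were 3 libraries of UBE2S-KO Huh7 cells and 3 libraries of WT Huh7 cells, both of polyadenylated RNA, and the study compared them to find genes downstream of UBE2S. The making of the knockout, whether it is 1 clone, and the cultures behind the 3 libraries of a group were not given in the sources used here, so the p-values reflect the spread among these libraries alone.

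Respiration passes electrons from NADH and succinate through complexes I to IV to oxygen, and complex V, the ATP synthase, uses the proton gradient that complexes I, III and IV build. Complexes I, III, IV and V are assembled from subunits of both genomes: the mitochondrial genome holds the genes of a few hydrophobic core subunits, while the nuclear genome holds all others and the whole of complex II. The mitochondrial genes are transcribed as long joint precursors that are cut into single RNAs, so processing and stability help to set their single levels, whereas each nuclear gene has its own promoter. Hepatocytes are rich in mitochondria.

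The libraries held 21840499 to 25840104 estimated counts in UBE2S-KO and 23300336 to 27910396 in WT. UBE2S itself averaged 45.7 ± 1.70 CPM (counts scaled to the same total per library, by TMM) in UBE2S-KO and 224 ± 9.37 CPM in WT (SD, n = 3 each), a log2 fold change of -2.29 (edgeR adjusted p = 1.6e-12, SE 0.04). WT replicate 1 stood apart: its chi-square per degree of freedom against the other WT libraries was 8.39 and 10.9, while those libraries differed from each other by 1.79 and the UBE2S-KO libraries from each other by 1.40 to 1.55. Results are therefore given with and without it where it moves them. Marker calls are read against all tested genes, of which edgeR called 29.4% higher and 30.7% lower in UBE2S-KO. Of 11 hepatocyte markers, 3 rose and 7 fell in UBE2S-KO, and their sum was 29392 to 29971 CPM in UBE2S-KO and 32234 to 32959.8 CPM in WT. The 5 fibroblast markers summed to 20.4 to 21.6 CPM in UBE2S-KO and 12.3 to 12.7 CPM in WT, and 3 of the 4 tested rose. Most of that sum was PDGFRB, at 14.3 CPM on average in UBE2S-KO and 7.36 CPM in WT. LUM, at 0.236 CPM in UBE2S-KO and 0.982 CPM in WT, fell, with a log2 fold change of -2.03. The 4 immune markers summed to 179 to 182 CPM in UBE2S-KO and 290 to 313 CPM in WT, most of it LYZ, and the 3 tested fell. PTPRC averaged 0.0280 CPM in UBE2S-KO and 0.136 CPM in WT. The 4 endothelial markers summed to 2.23 to 2.52 CPM in UBE2S-KO and 5.51 to 6.82 CPM in WT, where PECAM1 was the marker tested and fell, and KDR was at 0 in every library. The 5 striated muscle markers summed to 0.227 to 0.501 CPM in UBE2S-KO and 0.143 to 0.172 CPM in WT, and none was tested. What part these markers have in the results below was not tested, and in bulk RNA fewer cells of a type and less RNA per cell cannot be told apart.

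Nuclear subunits fell more often than they rose in UBE2S-KO. By edgeR's quasi-likelihood test with Benjamini-Hochberg adjustment at 0.05, 34 of the 82 tested nuclear members fell (41.5%) and 9 rose (11.0%). Over all 13265 tested genes, 30.7% fell, 29.4% rose, and 60.1% were called in either direction. The median log2 fold change was -0.09 over the nuclear members and -0.00 over all tested genes. The changes were small: the median absolute log2 fold change was 0.15 for nuclear members and 0.23 for all tested genes. Nuclear members and all tested genes were not matched for abundance, here or in the shares that follow. What part abundance has in these differences was not tested. A fall of at least 0.5 on the log2 scale was seen in 9 nuclear members, 11.0% of those tested and 9.83% of all tested genes. No nuclear member was called with a rise of that size, against 9.11% of all tested genes. The 34 members that fell spanned log2 fold changes of -0.69 to -0.10, and the 9 that rose spanned 0.10 to 0.38. Over the 82 tested nuclear members, every UBE2S-KO library lay below every WT library in 38 and above in 11, and the groups overlapped in 33. Of all tested genes the groups did not overlap in 65.8%, 32.3% with UBE2S-KO above and 33.5% with UBE2S-KO below. They did not overlap in any of the 43 called members, but these were picked by their calls and cannot be set against that share. DESeq2 called 30 nuclear members lower and 6 higher, against 23.1% and 21.6% of the genes it tested (44.6% in either direction). Without WT replicate 1, 45 nuclear members fell and 11 rose, and over all 13348 genes then tested 32.5% fell and 30.8% rose (63.4% in either direction). By complex, the falls without that library were 19 in complex I, 4 in II, 7 in III, 4 in IV and 11 in V, and the rises 9, 0, 0, 1 and 1.

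**Figure D1:**
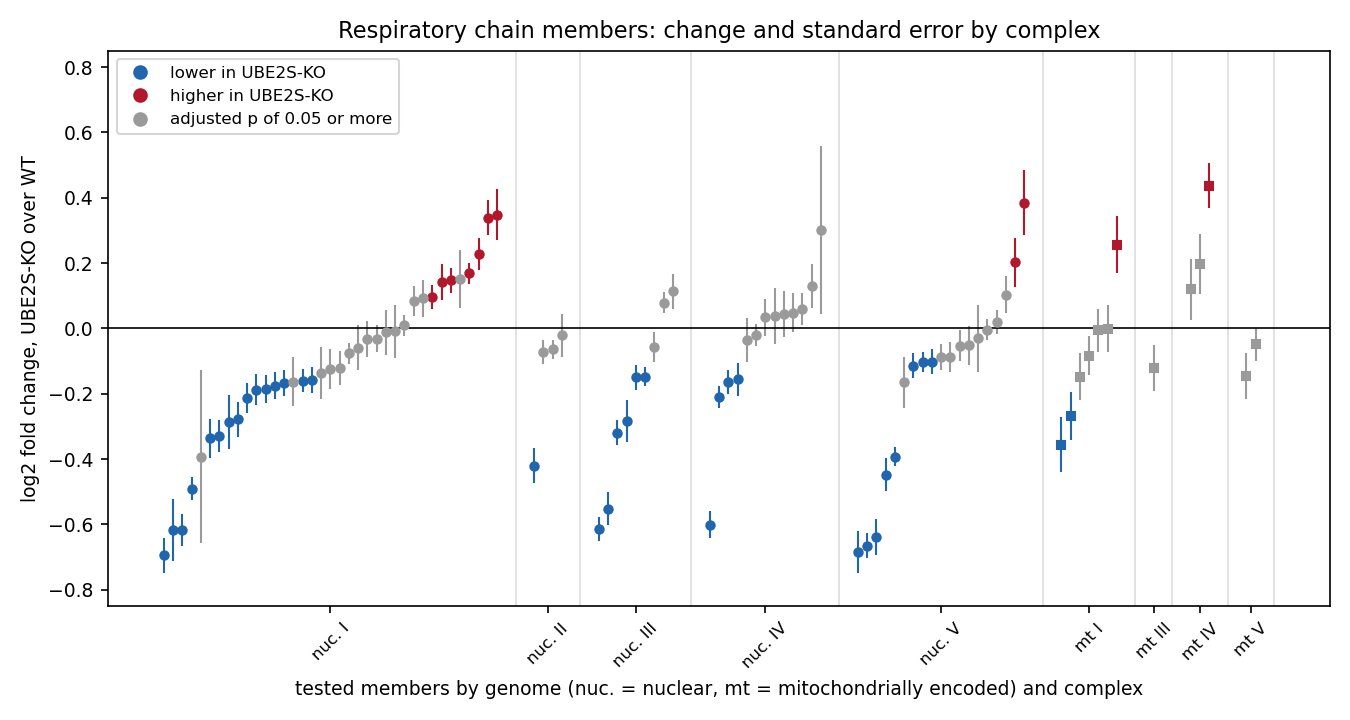
Log2 fold change of UBE2S-KO over WT (y axis) for each of the 95 tested members, ordered by value within each complex (x axis), with circles for nuclear and squares for mitochondrially encoded genes and bars for the standard error. Blue points were called lower and red points higher by edgeR. The nuclear members run between -0.69 and 0.38, and the mitochondrially encoded members between -0.36 and 0.44.

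Complex I takes electrons from NADH. Of its 37 nuclear genes, 15 fell and 7 rose. The core subunits that carry the flavin and the iron-sulfur clusters held 4 falls and no rise among 7 genes, and the accessory subunits held 11 falls and 7 rises among 29. NDUFS7, a core subunit beside the quinone site, had 28.7, 27.6 and 28.4 CPM in UBE2S-KO, against 47.0, 47.6 and 42.7 CPM in WT. Its libraries were far apart, with a log2 fold change of -0.69 (edgeR adjusted p = 2.1e-07, SE 0.05). NDUFB1, an accessory subunit of the membrane arm, had 5.73, 6.54 and 5.24 CPM in UBE2S-KO, against 8.87, 9.01 and 8.95 CPM in WT. It was the least abundant complex I gene named here, and its log2 fold change was -0.62 (edgeR adjusted p = 0.0001, SE 0.09).

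NDUFA11, another membrane arm accessory subunit, had 62.0, 64.6 and 65.4 CPM in UBE2S-KO, against 105, 98.4 and 91.3 CPM in WT, a log2 fold change of -0.62 (edgeR adjusted p = 3.2e-07, SE 0.05). NDUFS5, an accessory subunit on the intermembrane side, had 55.6, 54.7 and 53.2 CPM in UBE2S-KO, against 76.6, 75.2 and 77.5 CPM in WT. All UBE2S-KO libraries lay below all WT libraries, and its log2 fold change was -0.49 (edgeR adjusted p = 1.7e-07, SE 0.04). The other 11 complex I genes that fell had log2 fold changes closer to 0.

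The complex I genes with the largest rises were accessory subunits too. NDUFC1 had 24.1, 24.3 and 23.9 CPM in UBE2S-KO, against 16.2, 20.2 and 20.4 CPM in WT. WT replicate 1 was the lowest WT library, so the log2 fold change of 0.35 (edgeR adjusted p = 0.0019, SE 0.08) became 0.24 without it. NDUFB8 had 90.6, 89.7 and 91.9 CPM in UBE2S-KO, against 64.9, 77.9 and 72.8 CPM in WT, a log2 fold change of 0.34 (edgeR adjusted p = 0.00014, SE 0.05). NDUFB2 had 38.5, 39.3 and 41.3 CPM in UBE2S-KO, against 32.6, 35.7 and 33.6 CPM in WT, a log2 fold change of 0.23 (edgeR adjusted p = 0.0016, SE 0.05). In both, every UBE2S-KO library lay above every WT library. NDUFV1, the core subunit that binds NADH and the most abundant nuclear member of the complex, had 365, 368 and 373 CPM in UBE2S-KO and 352, 381 and 365 CPM in WT, and its groups overlapped.

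Complex II oxidises succinate. Of its 4 subunits 1 was called: SDHB, the iron-sulfur subunit, had 39.6, 44.2 and 42.5 CPM in UBE2S-KO, against 60.1, 55.0 and 53.9 CPM in WT. It fell by 0.42 on the log2 scale (edgeR adjusted p = 2.3e-05, SE 0.05). SDHA, the flavoprotein partner that SDHB joins, had 134, 134 and 136 CPM in UBE2S-KO and 139.7, 140.5 and 142 CPM in WT. These groups did not overlap either, but the log2 fold change of -0.06 (SE 0.03) missed the threshold at an edgeR adjusted p of 0.073. Without WT replicate 1 all 4 complex II genes were called lower.

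Complex III passes electrons from ubiquinol to cytochrome c. With all libraries it had the highest share of falls among the 5 complexes, 6 of 9 tested genes, and no rise. That rank was not kept under every setting. Without WT replicate 1, 7 of the 9 fell, beside 4 of 4 in complex II. Against chromosome neighbours 5 of the 9 were lower, beside 11 of 19 in complex V. UQCR11, a small accessory subunit, had 54.7, 52.9 and 54.9 CPM in UBE2S-KO, against 82.4, 84.8 and 81.6 CPM in WT, a log2 fold change of -0.61 (edgeR adjusted p = 2.3e-08, SE 0.04). UQCR10, another small accessory subunit, had 33.2, 33.7 and 35.2 CPM in UBE2S-KO, against 46.9, 52.5 and 50.5 CPM in WT, a log2 fold change of -0.55 (edgeR adjusted p = 1.2e-06, SE 0.05). UQCRFS1, the Rieske iron-sulfur protein, had 60.7, 61.3 and 61.4 CPM in UBE2S-KO, against 74.0, 79.6 and 75.4 CPM in WT, a log2 fold change of -0.32 (edgeR adjusted p = 1.3e-05, SE 0.04). In each of these the groups lay clearly apart.

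UQCRH, the hinge protein that helps dock cytochrome c1 to cytochrome c, had 64.7, 66.0 and 64.0 CPM in UBE2S-KO, against 70.0, 87.4 and 80.0 CPM in WT, with a wide spread in WT and a log2 fold change of -0.28 (edgeR adjusted p = 0.0019, SE 0.06). Its near-identical copy UQCRHL was estimated at 0 to 7.05 counts in any library and was not tested, and reads shared between the copies make both values less certain. UQCRC1, a core protein and the most abundant nuclear member of the complex, had 204, 206 and 204 CPM in UBE2S-KO, against 226, 232 and 221 CPM in WT. It fell by 0.15 on the log2 scale (edgeR adjusted p = 0.00086, SE 0.03), a small but tight difference.

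Complex IV, cytochrome c oxidase, reduces oxygen. Of its 13 tested nuclear genes 4 fell, none rose, and 9 were not called. COX6B1, which sits on the intermembrane side, had 51.2, 53.7 and 49.0 CPM in UBE2S-KO, against 80.0, 77.4 and 75.9 CPM in WT. It stood out from the rest of the complex with a log2 fold change of -0.60 (edgeR adjusted p = 1.1e-07, SE 0.04). COX8A, a small membrane subunit, had 75.6, 75.2 and 75.9 CPM in UBE2S-KO, against 85.3, 88.6 and 88.3 CPM in WT, a log2 fold change of -0.21 (edgeR adjusted p = 0.00015, SE 0.03). COX4I1, the widely expressed isoform of subunit IV and the most abundant nuclear member of the complex, had 237, 241 and 233 CPM in UBE2S-KO, against 280.1, 263 and 253 CPM in WT, a log2 fold change of -0.16 (edgeR adjusted p = 0.0022, SE 0.04). COX7B, another small subunit, averaged 37.7 ± 0.712 CPM in UBE2S-KO and 42.1 ± 2.65 CPM in WT (SD, n = 3 each), a log2 fold change of -0.16 (edgeR adjusted p = 0.019, SE 0.05). That call was lost without UBE2S-KO replicate 1 or 2, at -0.14 and -0.16, and with DESeq2. The tissue-restricted paralogues were nearly silent: COX4I2, COX6A2, COX7A1, COX7B2 and COX8C had 0 counts in every library, as did the ATP synthase gene ATP5MGL. COX6B2 had 0 to 2 counts, and NDUFA4L2, with 18 to 29 counts, was tested and not called.

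In complex V, 8 of the 19 tested genes fell and 2 rose. ATP5IF1, which inhibits ATP hydrolysis by the enzyme, had 38.7, 38.3 and 40.3 CPM in UBE2S-KO, against 69.1, 62.9 and 56.8 CPM in WT, a log2 fold change of -0.68 (edgeR adjusted p = 1.3e-06, SE 0.06). ATP5F1D, the delta subunit of the central stalk, had 51.8, 50.5 and 50.8 CPM in UBE2S-KO, against 78.1, 84.1 and 80.7 CPM in WT, a log2 fold change of -0.66 (edgeR adjusted p = 2.3e-08, SE 0.04). ATP5MC1, at chr17:48892765-48895871 on the plus strand of GRCh38, had 44.8, 44.0 and 47.3 CPM in UBE2S-KO, against 76.8, 68.3 and 66.8 CPM in WT. It is one of the 3 tested genes for the subunit of the membrane rotor ring, and the one of them that was called, with a log2 fold change of -0.64 (edgeR adjusted p = 6.6e-07, SE 0.05).

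ATP5MF, the f subunit of the membrane part, had 40.0, 37.3 and 40.0 CPM in UBE2S-KO, against 54.7, 55.1 and 50.4 CPM in WT, a log2 fold change of -0.45 (edgeR adjusted p = 6e-06, SE 0.05). It shares sequence with the readthrough gene ATP5MF-PTCD1, at 437 to 566 estimated counts in UBE2S-KO and 469 to 689 in WT, so its level is less certain. The rises were in small membrane subunits. ATP5MK had 46.5, 42.7 and 44.7 CPM in UBE2S-KO, against 27.1, 37.0 and 38.6 CPM in WT, a log2 fold change of 0.38 (edgeR adjusted p = 0.0049, SE 0.10) that became 0.24 without the low WT replicate 1. ATP5ME, the e subunit, averaged 20.5 ± 0.945 CPM in UBE2S-KO and 17.9 ± 1.81 CPM in WT (SD, n = 3 each), a log2 fold change of 0.20 (edgeR adjusted p = 0.033, SE 0.07) whose call was lost without WT replicate 1, UBE2S-KO replicate 2 or UBE2S-KO replicate 3. ATP5F1B, the catalytic beta subunit and the most abundant nuclear member of all, averaged 899 ± 10.8 CPM in UBE2S-KO and 901 ± 38.9 CPM in WT, and its groups overlapped; without WT replicate 1 it was called lower, at -0.04. The sequencing protocol is not stated to keep the strand, and NDUFC1, NDUFB8, NDUFB2, COX4I1, ATP5MF, ATP5MK and ATP5ME each overlap a gene on the opposite strand, whose reads cannot be told apart from theirs. NDUFA11, UQCR11, NDUFC1, NDUFB8 and NDUFB2 each overlap a gene on the same strand as well. Their estimates were not whole in all 6 libraries, so their levels too are less certain.

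**Figure D2:**
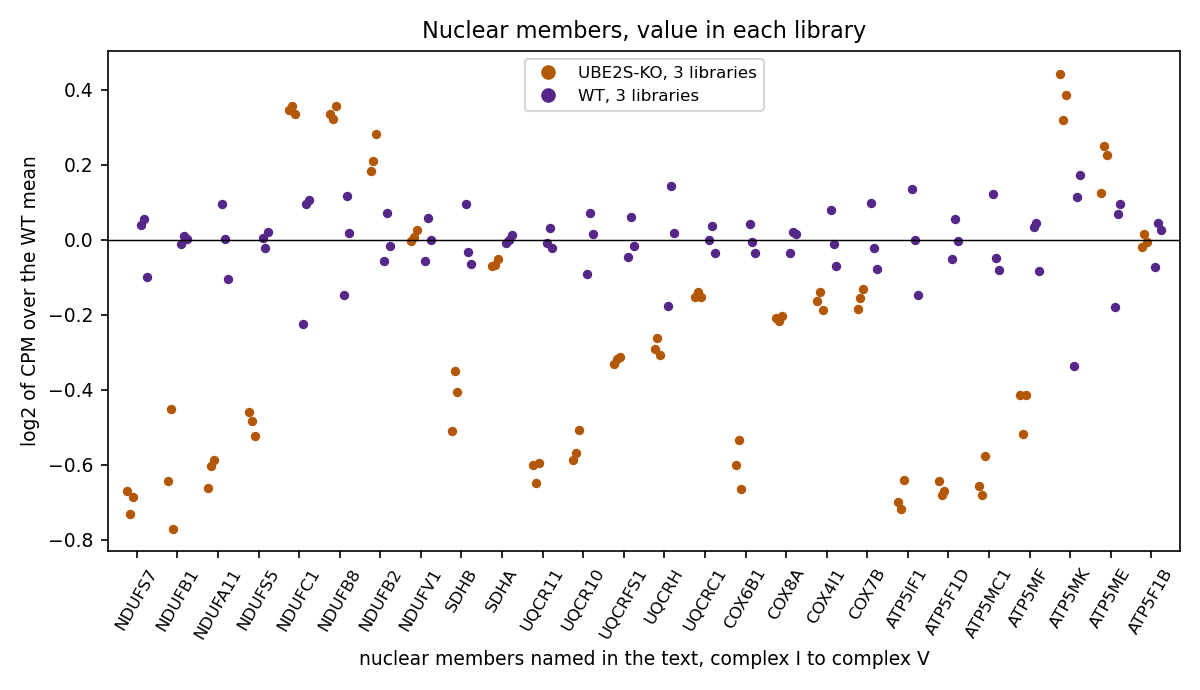
Log2 of the CPM in each library over the WT mean (y axis) for the nuclear members named by rule, complex I to complex V (x axis), with UBE2S-KO libraries in orange to the left of WT libraries in purple and 1 point per library. The orange points of NDUFS7, COX6B1, ATP5IF1, ATP5F1D and ATP5MC1 lie around -0.6 and below every purple point, while those of NDUFV1 and ATP5F1B fall among the WT libraries.

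Nuclear members tended to lie on the same side of 0 as the genes around them on the chromosome. For each gene, the median log2 fold change of up to 25 tested genes on each side was taken as the value of its neighbourhood. Across the 82 nuclear members, Pearson's r between the member and its neighbourhood was 0.77. Across 7710 tested genes of at least 20 CPM it was 0.48, and across all 13209 genes with a neighbourhood it was 0.27. These are descriptions, since genes are not replicates, neighbourhoods overlap, and all values come from the same 6 libraries. Among the 15 members whose neighbourhood was at -0.2 or lower, 14 fell and none rose. Among the 10 whose neighbourhood was at 0.2 or higher, 6 rose and none fell. Among the 57 members between these values, 20 fell and 3 rose, and their median log2 fold change was -0.07. Over all tested genes, whatever their neighbourhood, 30.7% fell and 29.4% rose. The counts by neighbourhood were not made for all tested genes, so they do not set the members apart from other genes.

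Chromosome 19, which carries 10 tested members, showed both directions. ATP5F1D, NDUFS7, UQCR11 and NDUFA11 on its short arm lay in neighbourhoods at -0.44, -0.43, -0.41 and -0.50, and COX6B1 in one at -0.42. NDUFA7, NDUFB7 and NDUFA13 lay in neighbourhoods at 0.35, 0.21 and 0.08, and had log2 fold changes of 0.14, 0.09 and 0.15. The last 3 were chosen after their values were seen. What lies behind such runs was not tested.

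When each gene was tested against its neighbourhood, 38 nuclear members were lower and 4 higher. Over the 13209 genes tested in that way 27.7% were lower and 27.1% higher (54.8% in either direction). The neighbourhood value was entered as a fixed offset taken from the same libraries. Calls in that fit therefore reflect the spread of the gene itself and leave out the error of the neighbourhood value. Of the 34 members that fell, 27 were still lower than their neighbours, and of the 9 that rose, 2 were still higher. These members were picked by their calls in the same libraries. The share of calls kept was not computed over all called genes, so these counts are not read as particular to the members. ATP5MC1 departed most from its surroundings: its neighbours had a median of 0.10, and its log2 fold change against them was -0.73. NDUFB1, in a neighbourhood at -0.05, was at -0.57 against it. ATP5IF1 was at -0.41, UQCR10 at -0.36, NDUFS7 at -0.27 and ATP5F1D at -0.22, all of them still called by edgeR. For NDUFA11, UQCRFS1, UQCRH, NDUFC1, NDUFB8, NDUFB2, ATP5MK and ATP5ME the difference from the neighbours was between -0.11 and 0.07 and was not called.

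**Figure D3:**
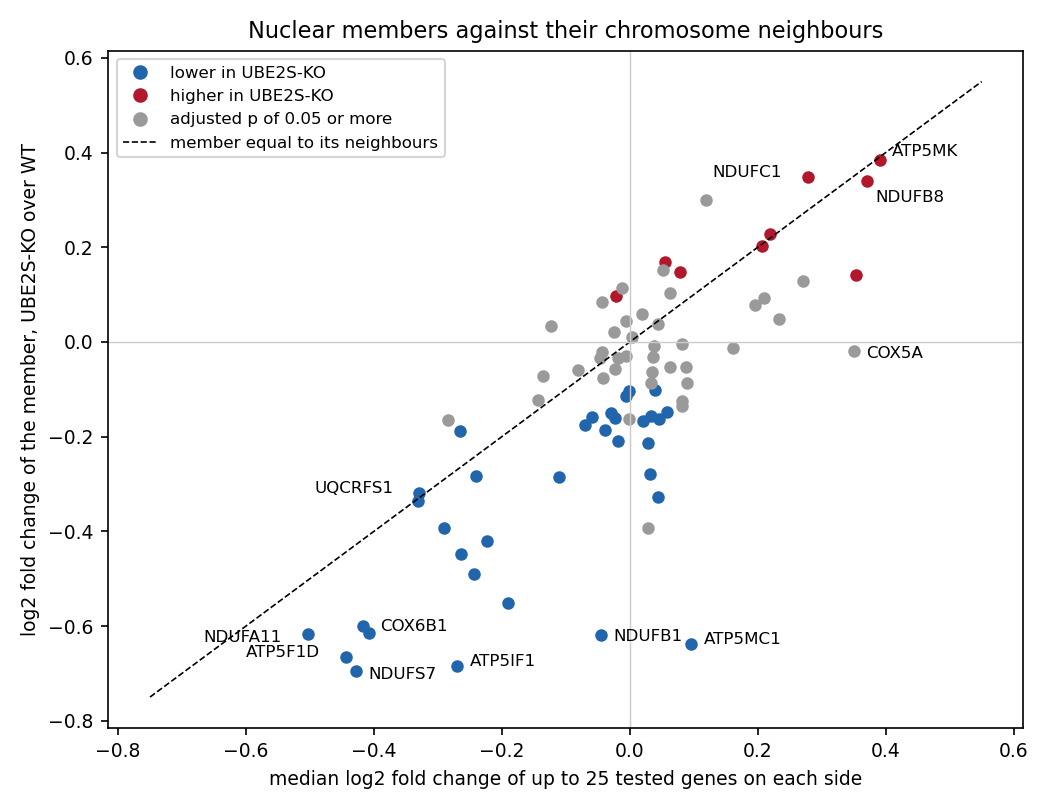
Log2 fold change of UBE2S-KO over WT of each of the 82 tested nuclear members (y axis) against the median of the genes around it (x axis), with 1 point per gene, colour for the edgeR call, and a dashed line where a member equals its neighbours. ATP5MC1 at -0.64 and NDUFB1 at -0.62 lie far below the line, and ATP5MK at 0.38 lies on it.

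Promoters of respiratory genes are known for binding NRF1, GABPA of the ETS family, and YY1. The letters CCGGAAGT (ETS), AAGATGGC (YY1) and the NRF1 palindrome, spelled out in capitals in the ATP5F1C promoter printed with these results, were searched on both strands in RefSeq promoters of GRCh38.p14, from 250 bases before to 50 bases after the start site. Of the 90 nuclear members, 70 were matched by symbol. At least 1 of these motifs was in 24 of the 70 promoters (34.3%) and in 8.30% of all 27305 promoters in the table. The 27305 promoters were not limited to the genes tested here, so these shares are of unlike sets. The NRF1 letters were in 4 members and 1.36% of all promoters, the ETS letters in 10 members and 4.44%, and the YY1 letters in 11 members and 3.03%. No matches of different motifs overlapped in the members printed here. The YY1 letters were in 8 of the 28 matched members that fell (28.6%), in 1 of the 8 that rose and in 2 of the 30 that were not called (6.67%); no test was made of these shares, and a match is not a binding site.

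To show where the letters stand, the windows of 30 bases are given for the 8 members that fell and hold the YY1 letters, read on the gene's strand with the letters in capitals. In NDUFS7 they begin at base 18 after the start site, in NDUFA9 at base 11, in NDUFA3 at base 22, in NDUFA6 at base 26, in SDHB at base 11, in UQCRC1 at base 24 and in ATP5PO at base 39. ATP5PB holds them on the opposite strand, from base -2. The windows lie at chr19:1383913-1383942 (plus strand), chr12:4649113-4649142 (plus), chr19:54102865-54102894 (plus), chr22:42090729-42090758 (minus), chr1:17054004-17054033 (minus), chr3:48609605-48609634 (minus), chr21:33915755-33915784 (minus) and chr1:111449451-111449480 (plus), in the order printed.
NDUFS7: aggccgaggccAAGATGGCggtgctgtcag
NDUFA9: gattgtgggaaAAGATGGCggctgccgcac
NDUFA3: ccgcggagacaAAGATGGCtgcgagtaagt
NDUFA6: gatgctttggcAAGATGGCggggagcggcg
SDHB: cgtcaggagccAAGATGGCggcggtggtcg
UQCRC1: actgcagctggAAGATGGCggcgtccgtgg
ATP5PO: cctacagccgcccgggagAAGATGGCtgcc
ATP5PB: acttgtgagcgGCCATCTTggtcctgccct
Every window but that of ATP5PB holds the letters in the same direction as the gene.

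Promoters with each of the other motifs are shown for a gene that fell. UQCR11 (chr19:1605413-1605712, minus strand) holds the ETS letters from base -117. ATP5F1C, the gamma subunit of the rotor (chr10:7787927-7788226, plus strand), holds the NRF1 letters from base -22 and was chosen after its values were seen. It had 104, 105 and 104 CPM in UBE2S-KO, against 137 CPM in each WT library, with little spread in either group and a log2 fold change of -0.39 (edgeR adjusted p = 1.9e-07, SE 0.03).
UQCR11: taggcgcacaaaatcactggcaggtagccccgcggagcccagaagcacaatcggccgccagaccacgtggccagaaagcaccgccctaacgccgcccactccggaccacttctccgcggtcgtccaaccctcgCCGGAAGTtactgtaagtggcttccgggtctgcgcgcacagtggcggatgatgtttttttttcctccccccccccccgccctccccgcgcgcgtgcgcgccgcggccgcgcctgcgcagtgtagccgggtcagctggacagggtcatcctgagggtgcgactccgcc
ATP5F1C: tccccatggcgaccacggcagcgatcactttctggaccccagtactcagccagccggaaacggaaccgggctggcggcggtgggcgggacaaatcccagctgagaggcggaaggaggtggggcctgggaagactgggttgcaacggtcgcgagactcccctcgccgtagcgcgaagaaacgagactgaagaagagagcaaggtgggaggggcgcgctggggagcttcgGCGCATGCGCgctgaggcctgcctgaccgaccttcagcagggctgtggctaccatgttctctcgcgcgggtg
The capitals mark the ETS letters in the promoter of UQCR11 and the NRF1 letters in that of ATP5F1C.

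The 13 mitochondrially encoded genes did not move as a block. MT-CO1 and MT-ND1 rose, MT-ND2 and MT-ND3 fell, and 9 were not called; the median log2 fold change was -0.05. That is 4 of 13 called (30.8%), against 60.1% of all tested genes. In each of the 13 genes WT replicate 1 was the highest WT library. Without it 6 rose and 2 fell, and the median became 0.03. The libraries of the groups did not overlap for 3 of the 13 genes, MT-CO1 above and MT-ND2 and MT-ND3 below, against 65.8% of all tested genes.

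MT-CO1, the catalytic subunit of cytochrome c oxidase, had 20702, 21884 and 21228 CPM in UBE2S-KO, against 18165, 14730.1 and 14226 CPM in WT. Every UBE2S-KO library was above every WT library, with a log2 fold change of 0.44 (edgeR adjusted p = 0.00014, SE 0.07) and 0.55 without WT replicate 1. MT-CO2, which takes electrons from cytochrome c, had 5367, 5515 and 5340.2 CPM in UBE2S-KO, against 5742, 4308 and 4099.8 CPM in WT. MT-CO3, the third core subunit, had 6369, 6574 and 6423 CPM in UBE2S-KO, against 7254, 5409 and 5161 CPM in WT. In MT-CO2 and MT-CO3 WT replicate 1 lay above the UBE2S-KO libraries and the other WT libraries below them. Their log2 fold changes of 0.20 (SE 0.09) and 0.12 (SE 0.09) were not called, and were called without WT replicate 1, at 0.36 and 0.29.

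Among the complex I subunits, MT-ND2, part of the proton-pumping membrane arm, had 3757, 3844 and 3771 CPM in UBE2S-KO, against 5811, 4499 and 4246 CPM in WT. It fell by 0.36 on the log2 scale (edgeR adjusted p = 0.0028, SE 0.08), and by 0.21 without WT replicate 1, with the groups apart either way. MT-ND3, a small membrane subunit, had 398, 381 and 392 CPM in UBE2S-KO, against 549, 439 and 422 CPM in WT. Its log2 fold change was -0.27 (edgeR adjusted p = 0.0071, SE 0.07), -0.14 without WT replicate 1, and DESeq2 did not call it. MT-ND1, which helps form the quinone channel, had 2434, 2456 and 2404 CPM in UBE2S-KO, against 2449, 1872 and 1784 CPM in WT. These groups overlapped through WT replicate 1, and the log2 fold change of 0.26 (edgeR adjusted p = 0.021, SE 0.09) lost its call when any one of the other 5 libraries was left out, at 0.17 to 0.26, but was 0.41 and called without WT replicate 1.

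MT-ND4, a pump subunit, averaged 8257 ± 107 CPM in UBE2S-KO and 8258 ± 1203 CPM in WT (SD, n = 3 each), with overlapping groups. MT-ND4L, whose end overlaps the start of MT-ND4, averaged 523 ± 19.2 CPM in UBE2S-KO and 525 ± 65.0 CPM in WT. MT-ND5, a pump subunit, averaged 3843 ± 79.3 CPM in UBE2S-KO and 4256 ± 602 CPM in WT. The wide WT spread in these genes came with the high values of WT replicate 1. MT-ND6, the one member read from the other strand, averaged 657 ± 2.24 CPM in UBE2S-KO and 696 ± 79.2 CPM in WT. As the protocol is not stated to keep the strand, reads of the opposite strand at MT-ND6 cannot be told apart from its own. MT-CYB, the cytochrome b of complex III, averaged 3080.2 ± 39.0 CPM in UBE2S-KO and 3351 ± 477 CPM in WT. None of these 5 genes was called with all libraries; MT-ND4 and MT-ND4L were called higher without WT replicate 1, at 0.12 and 0.10. Without WT replicate 3, MT-ND5 at -0.22, MT-ND6 at -0.16, MT-CYB at -0.19 and MT-ATP6 at -0.22 were called lower.

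The ATP synthase genes MT-ATP8 and MT-ATP6 share one messenger. MT-ATP8 averaged 222 ± 4.41 CPM in UBE2S-KO and 230.0 ± 20.2 CPM in WT, and MT-ATP6, the channel subunit of the proton path, averaged 4613 ± 54.9 CPM in UBE2S-KO and 5101 ± 723 CPM in WT (SD, n = 3 each). Their coding sequences overlap by 46 bases at chrM:8527-8572 (plus strand, GRCh38), shown here because reads from them cannot be assigned to 1 gene.
MT-ATP8 and MT-ATP6 overlap: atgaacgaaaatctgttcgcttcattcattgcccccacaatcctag
Neither gene was called, and the level of MT-ATP8 relative to MT-ATP6 therefore rests on how the counting treated the overlap, a setting not given in the available sources.

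The same genes were also compared by their shares of the mitochondrially encoded counts. MT-CO1 made up 34.5%, 35.2% and 35.0% of these counts in UBE2S-KO, against 27.5%, 28.1% and 28.4% in WT. WT replicate 1 lay close to the other WT libraries here, but not in every gene: MT-CO2 held 8.95%, 8.87% and 8.80% in UBE2S-KO, against 8.70%, 8.23% and 8.19% in WT, so that WT replicate 1 was nearer to UBE2S-KO. MT-CO3 held 10.6% in each UBE2S-KO library, against 11.0%, 10.3% and 10.3% in WT, and MT-ATP8 held 0.363%, 0.363% and 0.369% in UBE2S-KO, against 0.383%, 0.424% and 0.429% in WT. MT-ND2 held 6.22 ± 0.0405% in UBE2S-KO and 8.63 ± 0.164% in WT, and MT-ATP6 7.57 ± 0.0486% in UBE2S-KO and 9.10 ± 0.134% in WT (SD, n = 3 each). Of the 13 shares, 3 were higher in every UBE2S-KO library than in every WT library (MT-CO1, MT-CO2 and MT-ND1), 9 were lower in every UBE2S-KO library, and MT-CO3 overlapped. Relative to the same sum, 43.7% of all tested genes did not overlap, 13.8% above and 29.9% below. Shares sum to 100%, so the gain of MT-CO1 alone lowers the others.

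With the mitochondrially encoded sum as the library size, a setting added after the data were seen, edgeR called MT-CO1 higher, at 0.32 (SE 0.07, adjusted p = 0.00016), and 5 genes lower: MT-ND2 at -0.47, MT-ND3 at -0.39, MT-ND5 and MT-ATP6 at -0.27, and MT-CYB at -0.24. Over all tested genes 8.07% were higher and 24% lower in that fit (32.1% in either direction). By complex, the complex IV genes held 54.4 ± 0.288% of the mitochondrially encoded counts in UBE2S-KO and 46.9 ± 0.262% in WT, and the complex I genes 32.6 ± 0.211% in UBE2S-KO and 37.6 ± 0.0571% in WT (SD, n = 3 each). The complex V genes held 7.94 ± 0.0484% in UBE2S-KO and 9.51 ± 0.154% in WT. Place along the genome did not order the changes: MT-ND2 lies between MT-ND1 and MT-CO1 on the same strand, and its share was lower while theirs were higher.

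**Figure D4:**
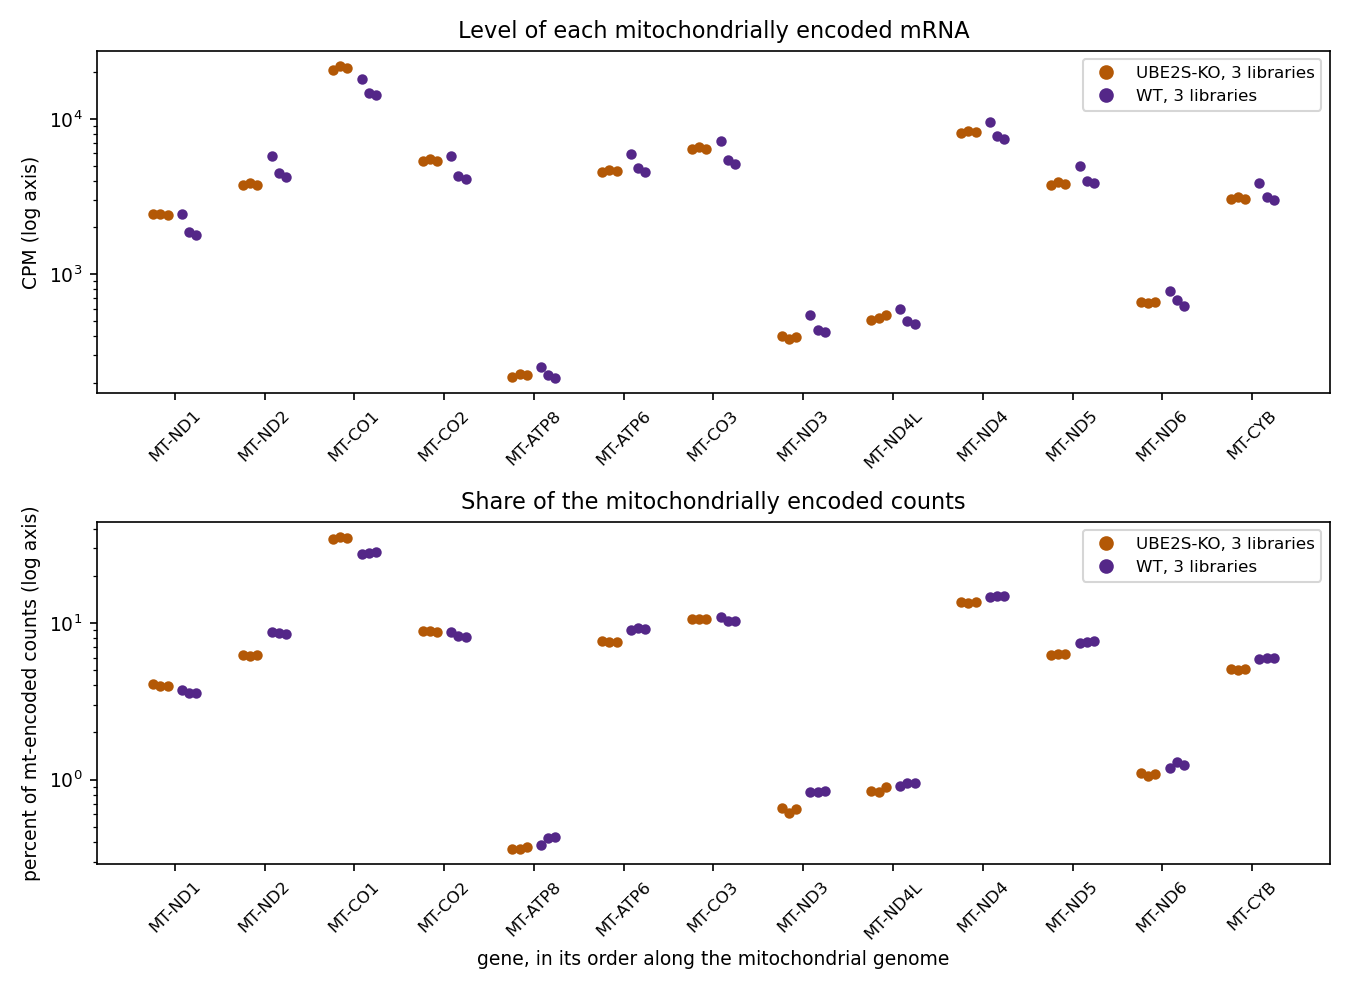
CPM (upper panel) and percent of the mitochondrially encoded counts (lower panel) for the 13 genes in their order along the mitochondrial genome, both on log axes, with the 3 UBE2S-KO libraries in orange to the left of the 3 WT libraries in purple. In the upper panel 1 WT library, WT replicate 1, is the highest WT point of every gene; in the lower panel MT-CO1 holds 34.9% on average in UBE2S-KO and 28.0% in WT with little spread.

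Levels per length differed widely between the genomes. MT-CO1 reached 13795 CPM per kilobase of transcript in UBE2S-KO and 10186 CPM per kilobase in WT, while the highest nuclear member, ATP5F1B, reached 489 CPM per kilobase in UBE2S-KO and 489.9 CPM per kilobase in WT. Even MT-ATP8, the lowest of the mitochondrially encoded genes on that scale, was at 1075 CPM per kilobase in UBE2S-KO and 1111 CPM per kilobase in WT.

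Summed over members, the nuclear genes separated the groups and the mitochondrially encoded genes did not. All 90 nuclear members, tested or not, summed to 6838, 6899 and 6939 CPM in UBE2S-KO, against 7152, 7566 and 7382 CPM in WT, a log2 difference of -0.10. Every UBE2S-KO library was below every WT library. The mitochondrially encoded members summed to 59978, 62153 and 60695 CPM in UBE2S-KO, against 65999.5, 52359 and 50060.0 CPM in WT. WT replicate 1 lay above and the other WT libraries below all UBE2S-KO libraries, and the log2 difference was 0.13 with it and 0.25 without it. The ratio of the mitochondrial to the nuclear sum was 8.77, 9.01 and 8.75 in UBE2S-KO, against 9.23, 6.92 and 6.78 in WT, a log2 difference of 0.22 with overlapping groups, and 0.37 without WT replicate 1. A test of such a sum over 3 against 3 libraries cannot give an exact p under 0.1, and none is given.

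**Figure D5:**
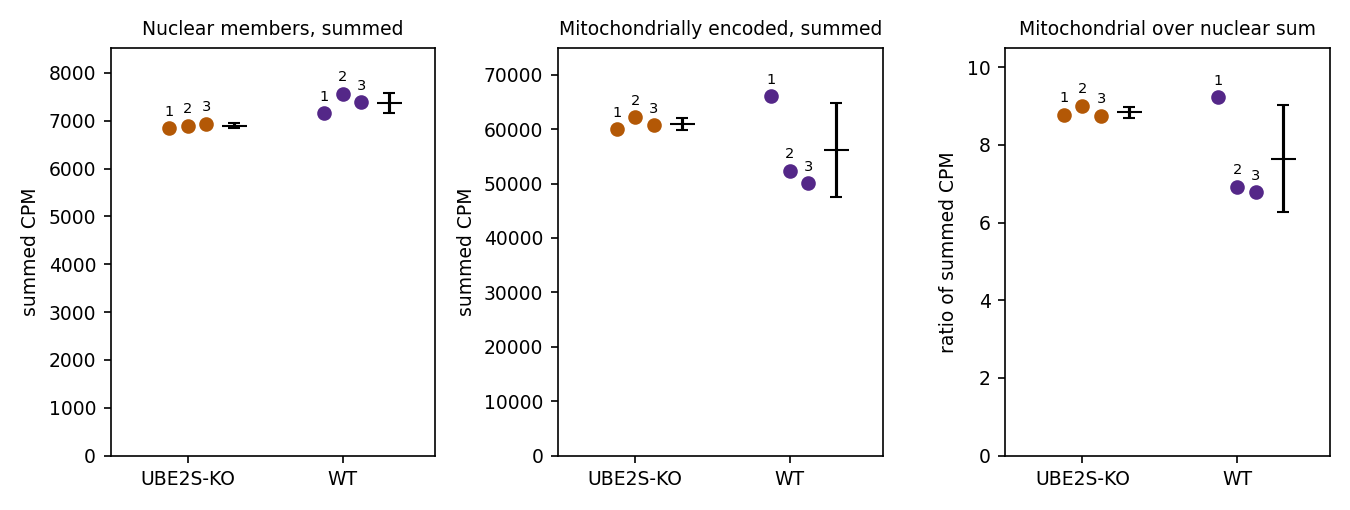
Summed CPM of the nuclear members, summed CPM of the mitochondrially encoded members, and their ratio (y axes, from 0), with 1 numbered point per library, UBE2S-KO left of WT, and the mean and SD beside each group. WT replicate 1 has a mitochondrial sum of 65999.5 CPM, above all other libraries, and a nuclear sum of 7152 CPM, the lowest of WT.

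Genes that build or serve the complexes were called in both directions, as were 29.4% (higher) and 30.7% (lower) of all tested genes. Of 16 complex I assembly factors 5 rose and 2 fell, and the median log2 fold change was 0.01. NDUFAF2 averaged 10.6 ± 0.0860 CPM in UBE2S-KO and 15.2 ± 0.996 CPM in WT, and NDUFAF3 29.4 ± 0.799 CPM in UBE2S-KO and 41.2 ± 3.84 CPM in WT (SD, n = 3 each). Both fell, by 0.52 and 0.49 on the log2 scale (edgeR adjusted p = 3.9e-05 and 3.3e-05), while NDUFAF4 and COA1 rose, at 0.35 and 0.28. Of the 4 complex II factors, SDHAF2, which attaches the flavin to SDHA, rose by 0.18 on the log2 scale, and SDHAF1, which serves the iron-sulfur clusters of SDHB, fell by 0.43, as did SDHAF3, by 0.39; a further 1 rose. Of the 6 complex III factors 2 rose and 3 fell: TTC19 was at 0.34 and UQCC2 at 0.19, and UQCC3 was at -0.42 and BCS1L, which inserts the Rieske protein, at -0.38.

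Of 20 complex IV factors 7 rose and 6 fell, with a median of 0.06. COX15, which makes heme a for the oxidase, averaged 94.5 ± 0.887 CPM in UBE2S-KO and 64.1 ± 3.58 CPM in WT (SD, n = 3 each), a log2 fold change of 0.56 (edgeR adjusted p = 1.8e-07, SE 0.04), and PET100 was at 0.44. SCO2, a copper carrier for the oxidase, was at -0.63 and COA6 at -0.52, both called. Of the 3 complex V factors ATPAF2 rose, at 0.25, and TMEM70 and ATPAF1 fell, at -0.42 and -0.16. Of 14 electron carriers and feeders 5 rose and 2 fell, with a median of 0.06. PDSS2 and PDSS1, the partners that make the ubiquinone tail, went opposite ways, at 0.39 and -0.56, with COQ2 at 0.35 and COQ4 at -0.15.

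Of 13 genes for copying and transcribing mitochondrial DNA 4 rose and 4 fell, with a median of -0.07. POLRMT, the mitochondrial RNA polymerase, had 85.4, 85.8 and 85.1 CPM in UBE2S-KO, against 118, 130 and 126 CPM in WT, a log2 fold change of -0.54 (edgeR adjusted p = 1.3e-07, SE 0.04). Its neighbours were at -0.42. The transcription factor TFB2M was at -0.48 among neighbours at -0.45. TWNK, the DNA helicase, rose by 0.38 and MTERF4 by 0.40. Of 16 genes for processing and stability of mitochondrial RNA 6 rose and 2 fell, with a median of 0.08. LRPPRC, which stabilises mitochondrial messengers, had 277, 281 and 281 CPM in UBE2S-KO, against 214, 231 and 240.0 CPM in WT, a log2 fold change of 0.30 (edgeR adjusted p = 2.7e-05, SE 0.04). SUPV3L1, a helicase of mitochondrial RNA decay, was at 0.46 among neighbours at 0.54, while FASTKD3 was at -0.29 and ELAC2, which trims transfer RNAs from the precursors, at -0.19.

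Of 9 nuclear regulators of respiratory genes 1 rose and 4 fell, with a median of 0.07. GABPA rose by 0.23 on the log2 scale (edgeR adjusted p = 0.00084), PPARGC1B, a coactivator of respiratory genes, was at -0.53 and MYC at -0.27. GABPB1 and PPARGC1A, given as the rest of the 4 that fell, were at -0.16 and -0.64 (edgeR adjusted p = 0.010 and 0.00042). PPARGC1A was low, at 3.59 CPM on average in UBE2S-KO and 5.63 CPM in WT. For NRF1 and YY1, chosen here because their motifs were searched, the log2 fold changes were 0.08 and 0.08, and neither was called.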

How the data were processed

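Polyadenylated RNA of 6 Huh7 libraries was sequenced (Illumina NovaSeq, per the labels' protocols), and groups were taken from the sample titles. Estimated counts per gene, not normalized, were deposited as 1 table, with 2670 to 2835 genes per library whose estimate was not whole. The tools listed without roles are StringTie 1.3.1, HISAT2, Bowtie2 2.2.8 and DESeq2, per the submitters' processing notes; the counting program, genome build and strand setting were not given in the sources used here. All 103 members matched GENCODE release 29 by identifier, which gave the GRCh38 positions and the lengths (median of a gene's basic protein-coding transcripts).

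Estimated counts were rounded and tested with edgeR 4.0.16 in R 4.3.3 (filterByExpr with a minimum count of 10, TMM, quasi-likelihood F test, no covariate, Benjamini-Hochberg adjustment over all 13265 genes, threshold 0.05), after the script had been tested on simulated data. CPM were computed here. Each gene was also fitted with the median of up to 25 tested neighbours on each side as an offset. The alternatives were other scalings and filters, DESeq2 1.42.0, voom in limma 3.58.1, a replicate block, a threshold of 0.01 and each library left out; the mitochondrially encoded sum as library size was added after seeing the data. Replicate numbers did not pair the libraries: the deviations of same-numbered libraries correlated at -0.01 to 0.01. Members, lists and motifs were chosen with earlier results of these data known. The genes named were every mitochondrially encoded member and, per complex, up to 4 nuclear members called lower and 3 called higher with the largest change and at least 5 CPM, the most abundant one, and tissue-restricted paralogues; per list, up to 2 per direction.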

Additional observations from a re-analysis of the deposited data

How the results depend on the processing

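Nuclear falls outnumbered rises under every alternative run, with 21 falls relative to the mitochondrially encoded sum and 30 to 45 under the others. Relative to that sum, falls outnumbered rises over all tested genes as well, at 24% against 8.07%. Against chromosome neighbours 4 nuclear members were higher. With the mitochondrially encoded sum as library size 0 nuclear members were higher and 21 lower, and 1 mitochondrially encoded gene was higher and 5 lower. Of all genes 1071 were then higher and 3188 lower. The 21 falls among 82 tested nuclear members lay near the share of all genes in that fit. The mitochondrially encoded calls were the least stable: 1 higher and 1 lower with DESeq2, 1 higher at a threshold of 0.01, 4 lower with no filter on low counts, and, leaving out 1 library at a time, 1 to 6 higher and 2 to 6 lower. The median over the mitochondrially encoded genes was -0.048, where their sum gave 0.13. With the replicate block 9 nuclear members were higher and 34 lower, and 3 mitochondrially encoded genes were higher and 2 lower. Of all genes 3872 were higher and 4041 lower with the block. At a threshold of 0.01 these were 3092 and 3380. Leaving out 1 library at a time, 3437 to 4115 of all genes were higher and 3675 to 4342 lower. Among members called with all libraries or under the alternative, leaving out 1 library at a time turned the sign of MT-ND4L (-0.068 to 0.10), MT-ND4 (-0.074 to 0.12) and COX6A1 (-0.0997 to 0.076), each time without WT replicate 1. Against neighbours it turned, by the same criterion, for NDUFB8 (-0.031), UQCRFS1 (0.011), ATP5MK (-0.0053), ATP5ME (-0.0029), NDUFA6 (0.080), NDUFA7 (-0.21), CYC1 (-0.12) and COX7A2 (-0.18), and with the mitochondrially encoded sum for NDUFA10 (-0.039). Counting members called in neither fit as well, 12 turned without WT replicate 1, 17 against neighbours and 15 with the mitochondrially encoded sum. Apart from what the offset, the library left out or the library size itself changes, the cause was not tested. With 3 libraries a group, changes of about 2 SE, such as those of MT-CO2 and SDHA, were not called, and the few reads of the paralogues allow no statement on them.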
